A study of Mus musculus with 6 samples.

Results

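The genes described here encode the TIM and TOM proteins, the translocases of the inner and outer mitochondrial membranes. Members were the rows whose symbol begins with Timm or Tomm followed by a digit and whose transcript types include protein coding, which gave 23 of the 26699 genes in the deposited tables. The complex I assembly factor gene Timmdc1 and the antisense gene Tomm6os do not meet that rule. The series profiled polyadenylated RNA of primary macrophages, grown from mouse bone marrow and on the way to osteoclasts, the multinucleate cells that resorb bone. The conditional knockout (cKO) cells had the genotype LysmCre-Slc11a2flox/flox, with Cre recombinase expressed from the lysozyme M promoter of the myeloid lineage. The control cells were Slc11a2flox/flox, with floxed alleles and no Cre, and came from litters of the cKO mice according to the series design. Mice of both genotypes were 8 weeks old, and their marrow cells were expanded with 10 ng/mL M-CSF and then given 30 ng/mL M-CSF with RANKL, the osteoclast-forming cytokine, at 50 ng/mL for 48 hours. There were 3 cKO and 3 control libraries. The labels do not say that the libraries of a genotype are separate mice or cultures, and p-values therefore reflect only the variation among these libraries, some of which may be technical.

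Slc11a2 encodes DMT1, which carries ferrous iron into the cytosol. Nearly all mitochondrial proteins are encoded in the nucleus, made in the cytosol and imported. Precursors enter through the TOM complex: Tomm20, Tomm22 and Tomm70 are receptors, Tomm40 forms the channel, and Tomm5, Tomm6 and Tomm7 are small subunits that help to build and hold the complex. Proteins with a cleavable presequence pass on to the TIM23 complex in the inner membrane and are pulled into the matrix by its motor, while carrier proteins are guided across the intermembrane space by the small TIM chaperones and inserted by the TIM22 complex. Osteoclasts are rich in mitochondria.

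Total counts were 49720701 to 55279336 in the cKO libraries and 52989755 to 57797282 in the control libraries. Slc11a2 stood at 82.8 ± 4.56 CPM in cKO cells and 115.5 ± 5.09 CPM in control cells (SD, n = 3 each), where CPM is a gene's reads relative to its library's TMM-scaled total. Slc11a2 was lower in every cKO library than in any control library, although reads from exons outside a floxed stretch still count towards the gene. Its log2 fold change, here always cKO over control, was -0.48 ± 0.06 (SE; adjusted p = 0.00219, from edgeR's quasi-likelihood test with Benjamini-Hochberg adjustment over all tested genes). Lyz2, the gene that carries the Cre insertion, stood at 7783 ± 96.8 CPM in cKO cells and 17105 ± 1577 CPM in control cells. With no Cre in the controls, Slc11a2 loss, Cre and the Lyz2 insertion cannot be told apart. For the marker lists that follow, CPM was taken on library totals without TMM scaling. All 5 macrophage markers were tested and summed to 6261 to 6744 CPM in cKO libraries and 6362 to 6809 CPM in control libraries. All 8 osteoclast markers were tested too, and they summed to 8288 to 11776 CPM in cKO libraries and 11254 to 14662 CPM in control libraries. In each of these lists, 0 markers were called lower and 0 higher by edgeR. Neutrophil markers summed to 51.7 to 67.3 CPM in cKO and 22.7 to 29.4 CPM in control libraries, and 4 of the 7 tested rose in cKO cells. Of that list of 9, Camp and Elane were under 1 CPM in every library and Ly6g was not analysed here. Stromal markers summed to 3211 to 5178 CPM in cKO and 3380 to 3931 CPM in control libraries, and 0 of the 4 tested were called. Erythroid markers summed to 0.503 to 1.23 CPM in cKO and 0.226 to 0.988 CPM in control libraries, B cell markers to 0.716 to 1.05 CPM in cKO and 0.623 to 0.727 CPM in control libraries, and mast cell markers to 0.0754 to 0.398 CPM in cKO and 0.415 to 0.711 CPM in control libraries. The part of any of these cell types in the values of the import genes was not tested.

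Most import genes stood slightly lower in cKO cells, and none of them passed the test. All 23 members passed the filter on low counts, with 0 called lower and 0 called higher by edgeR at an adjusted p below 0.05, where 2.42% of the 16843 tested genes were called. At an unadjusted p below 0.05 there were 8 members, all lower in cKO cells, against 8.79% of tested genes in that direction. DESeq2 and limma-voom with sample weights each called 1 member, Tomm22, where they called 5.19% and 4.18% of tested genes. Log2 fold changes were negative for 19 members, against 49.6% of tested genes, and ran from -0.40 for Timm8a1 to 0.09 for Timm17b. Their median was -0.17, and that of all tested genes was 0.00. In 6 members (Tomm22, Tomm40, Timm17a, Timm13, Timm8a1 and Timm10) every cKO library was below every control library, as was true of 11.4% of tested genes. In bulk RNA, fewer cells of a type and less RNA per cell cannot be told apart.

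**Figure D1:**
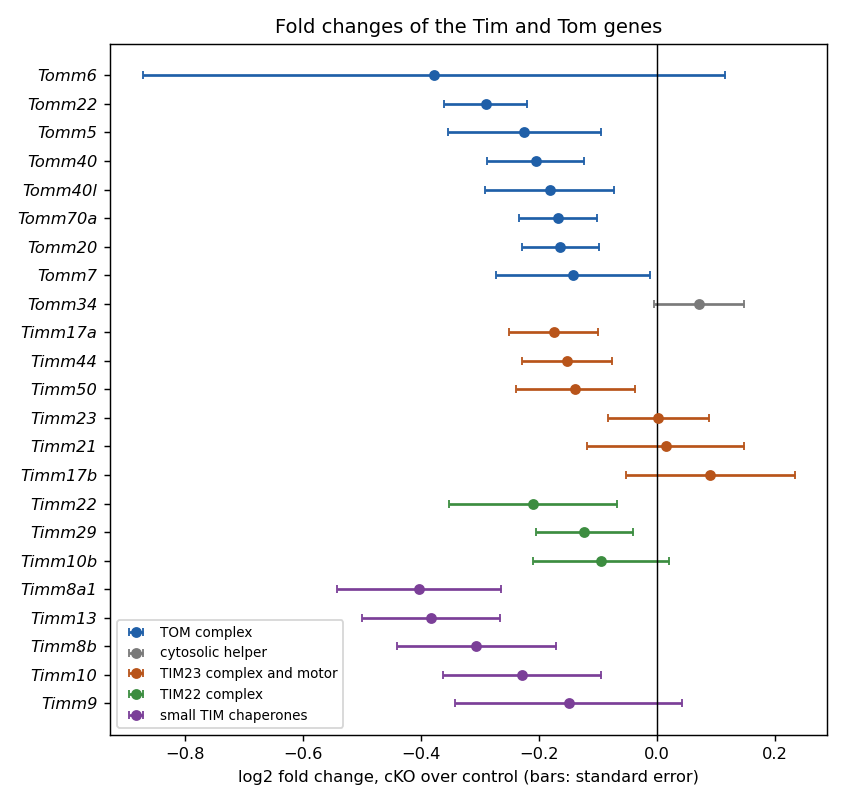
Log2 fold change (cKO over control) of each of the 23 genes on the horizontal axis, with bars of 1 standard error, coloured by role. All 8 TOM complex genes and all 5 small TIM genes lie below 0, whereas Timm23, Timm21 and Timm17b of the TIM23 complex lie at or above it.

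The shift was present in each cKO library. Counts assigned to the 23 members made up 0.0587%, 0.0615% and 0.0614% of all counts in cKO replicates 1 to 3, against 0.0663%, 0.0646% and 0.0683% in control replicates 1 to 3, before any scaling. Relative to the control mean, 19, 19 and 21 of the members were lower in cKO replicates 1 to 3. The same count was 9, 17 and 10 in control replicates 1 to 3, so most members lay below the control mean in control replicate 2. The mean log2 level of the members, set against the control mean, was -0.21, -0.14 and -0.19 in the cKO libraries and 0.04, -0.05 and 0.01 in the control libraries. The median log2 fold change was smallest in size without cKO replicate 1, at -0.12, and largest without cKO replicate 2, at -0.20.

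**Figure D2:**
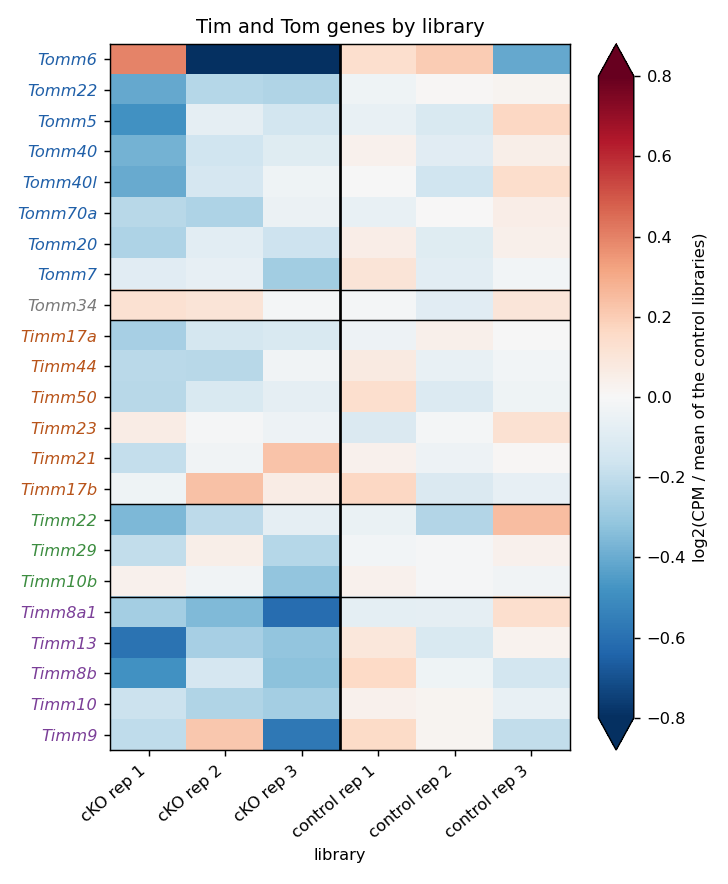
Log2 ratio of each gene's CPM to the mean of the control libraries (colour), by library (columns, cKO left of the line) and gene (rows, coloured by role as in the plot of fold changes). Most cKO cells of the map are blue in all 3 replicates; Tomm6 runs from strongly blue to red among the cKO libraries and lies beyond the colour range in cKO replicates 2 and 3.

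Every gene of the TOM complex, 8 in number, leaned towards lower levels in cKO cells, at a median log2 fold change of -0.19, and 0 of them passed the test. Tomm22 came nearest. It encodes the central receptor, which hands precursors from the other receptors to the channel, and it was the most abundant member per length, at 20.5 ± 1.63 FPKM in cKO cells and 24.9 ± 0.59 FPKM in control cells (SD, n = 3 each). FPKM, computed by the authors, scales a count by gene length and library size and is used here for levels between genes. Tomm22 (ENSMUSG00000022427, chromosome 15, 79670861 to 79673400 on mm10, plus strand) had 35.8, 40.6 and 40.3 CPM in cKO replicates 1 to 3, against 46.5, 48.0 and 48.3 CPM in control replicates 1 to 3. The genotypes did not overlap, and cKO replicate 1 was the lowest library. The log2 fold change was -0.29 ± 0.07 (SE, edgeR adjusted p = 0.0524), which missed the threshold. The adjusted p was 0.0144 with DESeq2, 0.0223 with limma-voom and 0.0492 without cKO replicate 3, and it reached 0.261 without cKO replicate 1, within a range of 0.0144 to 0.261 over 15 alternatives. With each library's trend over transcript length and GC content removed, the log2 fold change was -0.20 (adjusted p = 0.141).

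The other receptors had smaller differences. Tomm20, a receptor for presequences (ENSMUSG00000093904, chromosome 8, 126930667 to 126945844, minus strand), had 79.6, 89.0 and 84.3 CPM in cKO libraries and 98.1, 88.1 and 97.1 CPM in control libraries. cKO replicate 2 was above control replicate 2, so the groups overlapped, and the log2 fold change was -0.16 ± 0.07 (adjusted p = 0.225). Tomm70a encodes the receptor for carrier precursors delivered by cytosolic chaperones (ENSMUSG00000022752, chromosome 16, 57121703 to 57156705, plus strand). It had 110, 108 and 125 CPM in cKO libraries and 123, 129 and 133 CPM in control libraries, where cKO replicate 3 was within the control range. Its log2 fold change was -0.17 ± 0.07 (adjusted p = 0.221). Tomm40, the channel (ENSMUSG00000002984, chromosome 7, 19701313 to 19715438, minus strand), had 36.0, 42.0 and 43.9 CPM in cKO libraries and 48.0, 44.0 and 48.5 CPM in control libraries. The groups just failed to overlap, between cKO replicate 3 and control replicate 2, and the log2 fold change was -0.20 ± 0.08 (adjusted p = 0.226), or -0.12 without cKO replicate 1.

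**Figure D3:**
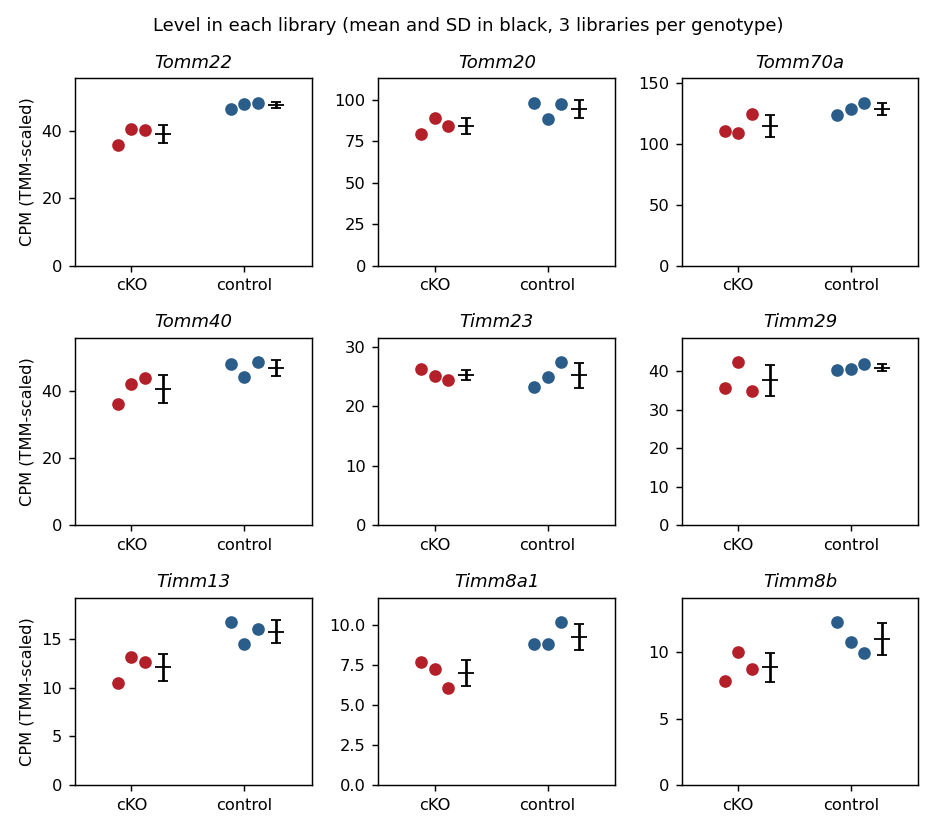
CPM after TMM scaling (vertical axes, starting at 0) in each of the 3 cKO (red) and 3 control (blue) libraries for 9 genes, with the mean and SD in black. Tomm22, Tomm40, Timm13 and Timm8a1 have all cKO libraries below all control libraries, and Timm23 overlaps fully.

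Promoters are shown for 4 of the members with a negative log2 fold change and a match to a motif known from nuclear genes for mitochondria. Each line gives the 250 bases before a RefSeq transcript start (GRCm38.p6), 5′ to 3′ on the gene's strand. Capitals mark matches on either strand to CCGGAAG, an ETS family motif, or to the core motif of nuclear respiratory factor 1 (NRF1), which is GCGCA, any base, then GCGC. ETS factor GABP and NRF1 are textbook regulators of nuclear genes for mitochondria. The windows are Tomm22 at chr15:79670618-79670867 (plus strand), Tomm70a at chr16:57121464-57121713 (plus strand), Tomm20 at chr8:126945922-126946171 (minus strand) and Timm8b, a small TIM gene described below, at chr9:50603651-50603900 (plus strand).
Tomm22: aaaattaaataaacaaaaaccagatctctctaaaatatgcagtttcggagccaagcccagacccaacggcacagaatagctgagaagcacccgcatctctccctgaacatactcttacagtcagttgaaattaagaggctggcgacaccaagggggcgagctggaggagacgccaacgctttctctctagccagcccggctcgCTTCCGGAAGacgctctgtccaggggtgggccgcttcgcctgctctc
Tomm70a: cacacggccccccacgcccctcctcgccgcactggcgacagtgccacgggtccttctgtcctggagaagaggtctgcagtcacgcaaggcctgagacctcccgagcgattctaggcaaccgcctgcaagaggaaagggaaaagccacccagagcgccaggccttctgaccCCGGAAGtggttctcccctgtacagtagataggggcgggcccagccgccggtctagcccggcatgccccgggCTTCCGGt
Tomm20: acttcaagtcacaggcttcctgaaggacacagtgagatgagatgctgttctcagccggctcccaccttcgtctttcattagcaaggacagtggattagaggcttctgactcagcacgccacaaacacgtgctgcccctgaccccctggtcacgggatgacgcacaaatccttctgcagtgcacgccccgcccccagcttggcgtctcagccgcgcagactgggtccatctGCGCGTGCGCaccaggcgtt
Timm8b: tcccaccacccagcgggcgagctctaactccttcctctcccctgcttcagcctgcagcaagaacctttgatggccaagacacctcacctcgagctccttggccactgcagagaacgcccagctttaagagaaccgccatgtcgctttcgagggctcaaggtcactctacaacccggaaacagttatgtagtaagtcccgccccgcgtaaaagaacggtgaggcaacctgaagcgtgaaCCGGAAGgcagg

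In Tomm22 an ETS match on each strand overlaps the other, beginning 47 and 44 bases before the start. Tomm70a holds ETS matches beginning 80 bases before its start and, on the opposite strand, 8 bases before it. Tomm20 has an NRF1 match beginning 20 bases before its start, and Timm8b an ETS match beginning 12 bases before its start. Beyond the bases shown, Tomm22 has another ETS match beginning 5 bases after its start, and Timm8b an NRF1 match beginning 18 bases after its start. Promoter windows of 300 bases, 250 before and 50 after the start, were listed for 20 members in 22 windows. The ETS motif was found in 9 of the 22 windows (8 genes), a share of 40.9%, against 8.86% of all 32851 windows and 16.1% of the 14466 windows of tested genes. Timm23, at a log2 fold change of 0.00, and Tomm34, at 0.07 and with a match in both of its windows, are among those 8 genes. Timm10, Timm10b and Timm29, each with a negative log2 fold change, are among them too, though not shown above. Of the members whose groups did not overlap, Tomm22 and Timm10 are among the 8 genes, and Tomm40, Timm17a, Timm13 and Timm8a1 are not. The NRF1 motif was in 2 windows (Tomm20 and Timm8b), or 9.09%, against 9.07% of windows of tested genes. The YY1 motif, AA, any base, then ATGGCGGC, was in 2 windows, or 9.09%, against 2.06% of windows of tested genes. The GC box GGGCGG was in 50.0% and CCAAT in 27.3% of members' windows, against 59.6% and 37.4% of windows of tested genes. The E-box CACGTG was in 18.2% and the estrogen-related receptor motif CAAGGTCA in 4.55% of members' windows, against 9.46% and 1.12% of windows of tested genes. Both strands were searched for every motif, and a match describes letters only.

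Of the remaining TOM genes, Tomm5 stood at 13.2 ± 1.93 CPM in cKO cells and 15.4 ± 1.67 CPM in control cells, and Tomm7 at 7.55 ± 0.59 CPM in cKO cells and 8.33 ± 0.55 CPM in control cells. The genotypes overlapped for each gene (adjusted p = 0.408 and 0.635). Tomm40l, a second channel form with its own gene, stood at 23.5 ± 3.04 CPM in cKO cells and 26.7 ± 2.76 CPM in control cells (adjusted p = 0.43). Tomm40l shares 3304 of its 5135 exon bases with Nr1i3 on the opposite strand, a row that averaged 17.0 reads per library, against 1369 for Tomm40l.

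Tomm6 was the member with the largest spread. It had 20.9, 7.07 and 8.65 CPM in cKO replicates 1 to 3 and 17.4, 18.2 and 11.9 CPM in control replicates 1 to 3. Its highest and its lowest libraries were both cKO, and its log2 fold change was -0.38 ± 0.49 (adjusted p = 0.764). It was -1.01 without cKO replicate 1 (adjusted p = 0.0762), -0.10 without cKO replicate 2 and -0.18 without cKO replicate 3, each a move of over 1.5 times. Tomm6 (chromosome 17, 47686646 to 47688183, minus strand) shares 859 of its 1131 exon bases with Gm21981, a row on the same strand annotated as subject to nonsense-mediated decay, so the assignment of reads is uncertain. Gm21981 had 18.6, 29.7 and 29.6 CPM in cKO libraries and 26.5, 25.5 and 30.4 CPM in control libraries, low where Tomm6 was high. The sum of both rows, chosen after their values were seen, was 39.5, 36.8 and 38.2 CPM in cKO libraries and 43.8, 43.7 and 42.3 CPM in control libraries. The summed groups did not overlap. Counted together, the rows gave -0.18 ± 0.07 on the log2 scale (adjusted p = 0.182). The median of the TOM genes, which includes Tomm6 counted alone, was -0.19. The sum is not a level of Tomm6, as Gm21981 averaged 1459.8 reads per library against 756.0 for Tomm6.

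**Figure D4:**
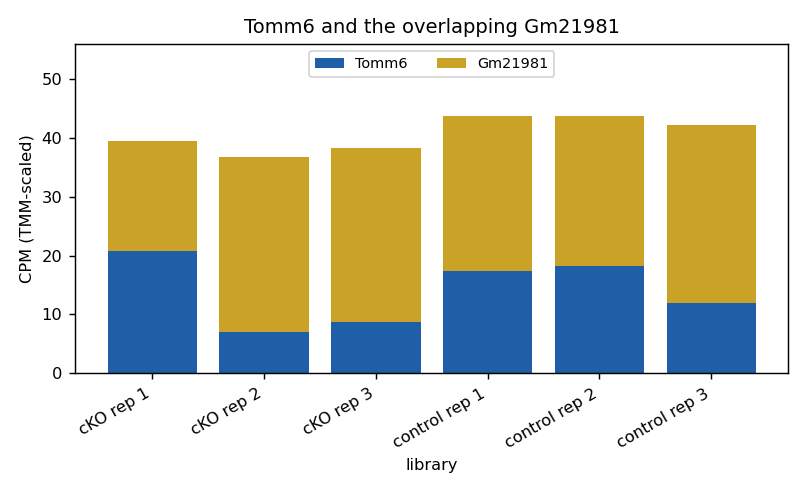
CPM after TMM scaling of Tomm6 (blue) and of Gm21981 (yellow), stacked, in each cKO library (left) and control library (right). The split between the rows varies widely, while the tops of the bars lie between 36.8 and 39.5 CPM in cKO and between 42.3 and 43.8 CPM in control libraries.

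The TIM23 complex was divided. Of its 6 genes, 3 had negative and 3 positive log2 fold changes, with a median of -0.07, and 0 passed the test. Timm23, the channel-forming subunit and the most abundant of these genes per length (ENSMUSG00000013701, chromosome 14, 32180162 to 32201898, minus strand), had 26.2, 25.0 and 24.5 CPM in cKO libraries and 23.3, 25.0 and 27.4 CPM in control libraries. The cKO values lay inside the control range, and the log2 fold change was 0.00 ± 0.09 (adjusted p = 0.993). Per length it stood at 12.3 ± 0.36 FPKM in cKO and 12.2 ± 1.06 FPKM in control cells. Its sign turned when cKO replicate 1, control replicate 1 or control replicate 2 was left out.

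Timm17a, which pairs with Timm23 in the channel, had 26.6, 29.1 and 29.4 CPM in cKO libraries and 31.1, 32.9 and 31.9 CPM in control libraries, without overlap (-0.17 ± 0.08, adjusted p = 0.262). Its X-linked paralog Timm17b stood at 7.43 ± 0.72 CPM in cKO cells and 6.98 ± 0.75 CPM in control cells (0.09 ± 0.14, adjusted p = 0.798). Timm44, which anchors the import motor, was at -0.15 ± 0.08 (adjusted p = 0.334) and Timm50, the receptor of the complex, at -0.14 ± 0.10 (adjusted p = 0.532). Timm21, which links the complex to TOM and to the respiratory chain, was at 0.02 ± 0.13 (adjusted p = 0.97), with a sign that turned without cKO replicate 3 or control replicate 2 and with limma-voom.

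All 3 genes of the TIM22 complex stood slightly lower in cKO cells, at a median log2 fold change of -0.12, and 0 passed the test. Timm29, a subunit that in human cells links TIM22 to TOM and the most abundant of the 3 per length (ENSMUSG00000048429, chromosome 9, 21592722 to 21595970, plus strand), had 35.6, 42.2 and 34.8 CPM in cKO libraries and 40.2, 40.6 and 41.8 CPM in control libraries. cKO replicate 2 was the highest of all 6 libraries, and the log2 fold change was -0.12 ± 0.08 (adjusted p = 0.487), or -0.21 without cKO replicate 2 and -0.07 without cKO replicate 3. Timm22, the insertion channel for carriers, stood at 10.2 ± 1.01 CPM in cKO cells and 11.7 ± 2.01 CPM in control cells (adjusted p = 0.493). Timm10b, a small TIM protein bound to TIM22, stood at 13.3 ± 1.68 CPM in cKO cells and 14.2 ± 0.30 CPM in control cells (adjusted p = 0.729). It shares 376 of its 3582 exon bases with Gm45799 on the same strand, a row with 110.8 reads per library on average against 749.5, and 277 with Arfip2 on the opposite strand.

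The small TIM chaperones all stood lower in cKO cells. All 5 log2 fold changes were negative, with a median of -0.31, and 0 passed the test. Timm8a1 and Timm13 encode the partners of the TIM8-TIM13 hexamer, which chaperones precursors such as Timm23 across the intermembrane space. Loss of the human counterpart of Timm8a1 causes deafness-dystonia syndrome. Timm8a1 (ENSMUSG00000048007, chromosome X, 134537256 to 134541865, minus strand) had 7.70, 7.28 and 6.10 CPM in cKO libraries and 8.82, 8.84 and 10.2 CPM in control libraries. Every cKO library was below every control library, and the log2 fold change was -0.40 ± 0.14 (adjusted p = 0.16). Timm13 (ENSMUSG00000020219, chromosome 10, 80899450 to 80900969, minus strand) had 10.5, 13.2 and 12.7 CPM in cKO libraries and 16.8, 14.5 and 16.1 CPM in control libraries. These groups did not overlap either, and the log2 fold change was -0.38 ± 0.12 (adjusted p = 0.119).

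Timm8b, a close relative of Timm8a1 and the most abundant small TIM gene per length, stood at 14.9 ± 2.02 FPKM in cKO cells and 18.3 ± 1.91 FPKM in control cells. It (ENSMUSG00000039016, chromosome 9, 50603910 to 50605320, plus strand) had 7.86, 10.0 and 8.76 CPM in cKO libraries and 12.3, 10.7 and 9.94 CPM in control libraries. cKO replicate 2 was just above control replicate 3, and the log2 fold change was -0.31 ± 0.13 (adjusted p = 0.269). Timm8b shares 81 of its 518 exon bases with Nkapd1 on the opposite strand. Timm9 and Timm10 form the hexamer that chaperones carriers. Timm10 stood at 5.95 ± 0.22 CPM in cKO cells and 6.97 ± 0.24 CPM in control cells without overlap (adjusted p = 0.414), and Timm9 at 6.51 ± 1.79 CPM in cKO cells and 7.23 ± 0.87 CPM in control cells (adjusted p = 0.746), with a positive sign without cKO replicate 3. By the longest annotated transcript of each gene, the small TIM genes were short, with a median of 1225 bases against 2381 over all members and 3002.5 over all tested genes. After removal of each library's length and GC trend, their median was -0.18, that of the TOM genes was -0.20 and that of all 23 members was -0.16.

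Tomm34 carries the name of the outer membrane complex but encodes a cytosolic co-chaperone. It stood at 39.1 ± 2.00 CPM in cKO cells and 37.2 ± 2.44 CPM in control cells (0.07 ± 0.08, adjusted p = 0.684).

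The balance between paralogs was compared in 3 pairs as the share of the pair's summed FPKM. Timm17a made up 55.4 ± 1.79% of Timm17a and Timm17b in cKO cells and 59.8 ± 3.14% in control cells (SD, n = 3 each), a difference of -4.44 percentage points (two-sided exact permutation p = 0.2). Tomm40 made up 66.3 ± 0.67% of Tomm40 and Tomm40l in cKO cells and 66.7 ± 1.32% in control cells (exact permutation p = 0.7). Timm8a1 made up 22.5 ± 3.33% of Timm8a1 and Timm8b in cKO cells and 23.7 ± 3.29% in control cells (exact permutation p = 0.6). Adjusted over the 3 pairs the p-values were 0.6, 0.7 and 0.7, and with 3 libraries against 3 none could go below 0.1.

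Other genes of the import pathway, listed from textbook knowledge, ran from -1.22 to 0.09 in log2 fold change. The lowest was Immp2l at -1.22 ± 0.50 (adjusted p = 0.24), an inner membrane peptidase gene named after its values were seen. Of 26 such genes, 0 passed the edgeR test in either direction, 12 had an unadjusted p below 0.05, all lower in cKO cells, and 3 were called by DESeq2 and 3 by limma-voom. Over all tested genes those shares were 2.42% with edgeR, 8.79% lower at that unadjusted p, 5.19% with DESeq2 and 4.18% with limma-voom. Log2 fold changes were negative for 23, with a median of -0.17. The genes called by both of those tools were Grpel1, Samm50 and Hspd1. Grpel1, the nucleotide exchange factor of the motor, stood at 33.2 ± 1.40 CPM in cKO cells and 40.5 ± 1.05 CPM in control cells (-0.29 ± 0.07, edgeR adjusted p = 0.0508). Samm50, the core of the machinery that sorts barrel proteins into the outer membrane, was at -0.22 ± 0.06 (adjusted p = 0.0618). Hspd1, the matrix chaperonin Hsp60, was at -0.24 ± 0.06 (adjusted p = 0.0687), and its partner Hspe1 at -0.19 ± 0.09 (adjusted p = 0.299). Hspa9, the Hsp70 of the motor, was at -0.16 ± 0.06 (adjusted p = 0.176) and the outer membrane gene Mtx2 at -0.19 ± 0.08 (adjusted p = 0.265).

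In the intermembrane space, Chchd4, the oxidoreductase that traps small TIM proteins by disulfide bonds, was at -0.33 ± 0.13 (adjusted p = 0.214) and its anchor Aifm1 at -0.18 ± 0.08 (adjusted p = 0.293). Of the genes for insertion into the inner membrane, Agk, a subunit of TIM22 in human cells, was at -0.28 ± 0.10 (adjusted p = 0.2) and the insertase gene Oxa1l at -0.10 ± 0.08 (adjusted p = 0.562). Pmpca and Pmpcb, the subunits of the presequence peptidase, were at -0.19 ± 0.06 (adjusted p = 0.108) and -0.17 ± 0.07 (adjusted p = 0.239).

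The import genes were set beside other nuclear genes for mitochondrial proteins. Of 78 genes for mitochondrial ribosomal proteins, 2 fell, Mrpl36 by 0.53 and Mrpl51 by 0.41 on the log2 scale (adjusted p = 0.0129 and 0.023), and 74 were negative around a median of -0.19. Nuclear genes for complex I subunits were taken by symbol (Ndufa, Ndufb, Ndufc, Ndufs or Ndufv and a digit), which takes in Ndufa4 and Ndufa4l2. Of these 38 genes, 2 fell, Ndufa10 by 0.32 and Ndufa4, since assigned to cytochrome c oxidase, by 0.34 on the log2 scale (adjusted p = 0.0284 and 0.0309). All 38 were negative around a median of -0.24. These 4 genes are named because the counts are small, and 1.06% of tested genes fell. DESeq2 called 6 ribosomal and 7 complex I genes and limma-voom 4 and 6, against 5.19% and 4.18% of tested genes. At an unadjusted edgeR p below 0.05, 25 ribosomal and 24 complex I genes were lower and 1 and 0 higher, against 8.79% of tested genes lower. Every cKO library was below every control library in 32 ribosomal and 23 complex I genes, against 11.4% of tested genes, and above in 1 and 0. With the length and GC trend removed, 69 of the 78 ribosomal genes were negative around a median of -0.15 and 35 of the 38 complex I genes around a median of -0.18. No test of the difference between these groups was made.

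**Figure D5:**
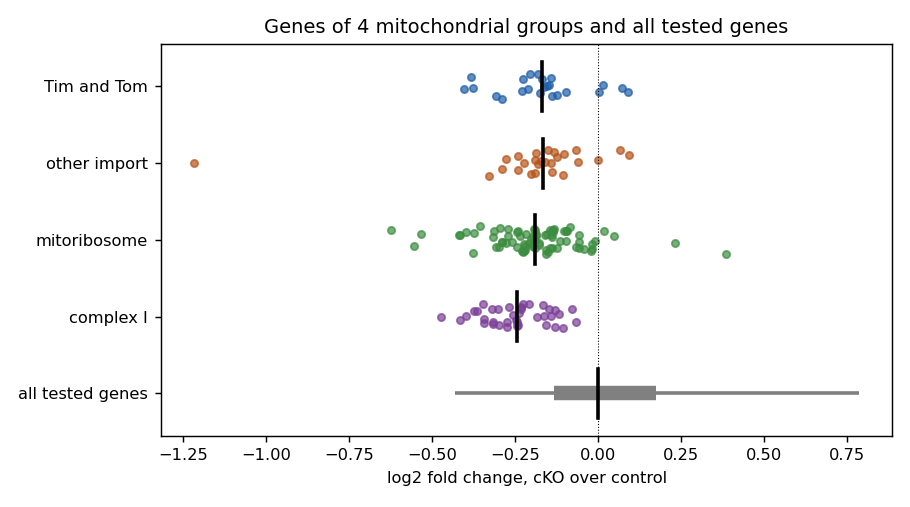
Log2 fold change (cKO over control, horizontal axis) of each gene in 4 groups, with the group median as a black line, above all 16843 tested genes, shown by their 5% to 95% range (thin line), their quartiles (thick line) and their median. The medians of the 4 groups lie between -0.24 and -0.17, and that of all tested genes at 0.00; the far left point, at -1.22, is the peptidase gene Immp2l, a low gene that averaged 0.369 CPM in cKO and 0.860 CPM in control cells.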

How the data were processed

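The deposited files give unnormalized whole-number read counts per gene, as their headers state, and the authors' own FPKM values. Trimming with cutadapt 1.9 and the build mm10 appear in the submitters' processing notes. Sources used here do not give the aligner, the counter or whether it used strand; libraries were made with dUTP, which marks the strand, per the labels' protocols. The comparison of 3 cKO with 3 control libraries used edgeR 4.0.16 (R 4.3.3), with filterByExpr (minimum count 10, minimum total 15), TMM scaling and a robust quasi-likelihood F test, with Benjamini-Hochberg adjustment over 16843 genes. SE is the log2 fold change divided by the square root of F. Alternatives used DESeq2 1.42.0, limma 3.58.1, other scalings, no filter, each library left out, a replicate block and per-library lowess trends over transcript length and GC content (GENCODE M21). Length and GC content were those of each gene's longest annotated transcript, which need not be the one expressed. A further alternative counted Tomm6 and Gm21981 together. A single read was worth 0.0173 to 0.0201 CPM before TMM scaling. Fits were tested on simulated data with changes larger than those of the members over all libraries, so recovery of changes as small as the members' was not assessed.

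The members and lists were chosen with earlier results of these data known. Named in full are the members called, or the 6 with the smallest raw p if fewer were called, and the most abundant per length in each role group; other import genes are named if called or among up to 2 per step by raw p. Libraries of a genotype differed beyond sampling noise (chi-square of 16.2 to 36.2 per degree of freedom).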

Additional observations from a re-analysis of the deposited data

How the results depend on the processing

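Over 15 alternatives, 19 of the 23 members kept the sign of their log2 fold change in all of them. These alternatives include the joint count of Tomm6 and Gm21981, which was chosen after their values were seen and left the other members nearly unchanged. The number of members called, 0 in the edgeR test reported above, was 1 with DESeq2, limma-voom and the replicate block (Tomm22 each time), 1 with the block and the length and GC trend removed together (Tomm70a), and ranged from 0 to 1 with a library left out (Tomm22 without cKO replicate 3). All tested genes called numbered 874 with DESeq2, 704 with limma-voom, 673 with the block and 845 with the block and trend removal, against 407, and moved by over 1.5 times without any 1 library, to 59, 235 and 624 without cKO replicates 1 to 3 and 91, 166 and 116 without control replicates 1 to 3. The 407 genes split into 178 lower and 229 higher in cKO cells, and with upper-quartile scaling 396 genes split into 131 lower and 265 higher. Of the 26 other import genes, 3 were called with DESeq2, 3 with limma-voom, 2 with the block, 2 with the trend removed and 3 with both. With a library left out, 0 to 2 were called (Samm50 and Hspd1 without cKO replicate 3). With the trend alone removed, 379 of all 16843 tested genes were called, and the other totals are given above. The members' median ranged from -0.20 to -0.12 with a library left out and kept its sign in all alternatives. With a library left out, log2 fold changes ranged from -0.16 to 0.0050 for Timm10b, -0.11 to 0.11 for Timm21, -0.050 to 0.069 for Timm23 and -0.38 to 0.024 for Timm9, and with limma-voom Timm21 was at -0.055; the cause was not tested.

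Whether replicate numbers pair the libraries could not be decided. Same-numbered deviations from the group means correlated at -0.08, 0.05 and 0.26 over 9454 genes, and not every library correlated best with its own number. The value of 0.26, for replicate 3, was the highest of all pairs of a cKO and a control library. Deviations from the mean of only 3 libraries are tied to each other, so these correlations cannot exclude pairing. With 3 libraries per genotype, standard errors of the members' log2 fold changes ran from 0.07 to 0.49, the highest being that of Tomm6.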
